A study of Mus musculus with 4 samples.

Results

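The 10 genes described here encode transporters of the blood-brain barrier, the wall that the endothelial cells of brain vessels form between blood and neural tissue. They were taken by symbol (Slc2a1, Slco1a4, Slco1c1, Slc7a5, Slc7a1, Slc16a1, Slc38a5, Abcb1a, Abcg2 and Mfsd2a) from the 31053 genes of the count matrices, and each symbol was found. Single-cell RNA-seq counts came from the whole brain of 4 mice, each a male of strain C57BL/6J aged 90 days, with 1 library per animal. All were dissociated with enzymes and labelled as 1 batch. In 2 animals no inhibitor was present. In the other 2, the transcription blockers actinomycin D and triptolide were present from perfusion on, and the translation blocker anisomycin was added for dissection and digestion. The labels name no transgene or deletion. Each group's 2 values are 2 animals, so p-values between the groups measure the spread between these animals alone. In comparisons of cell classes or vessel zones each animal's own level was taken out, so p-values there measure the spread left within these animals.

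Brain endothelial cells are joined by tight junctions, so sugars, amino acids and hormones reach the tissue through carriers in the cell membrane, and many drugs are pumped back into the blood. Solute carriers (Slc and Slco genes) move nutrients, organic anions and hormones, and ATP-binding cassette pumps (Abc genes) expel foreign compounds. Arteries, capillaries and veins of the brain are lined by endothelial cells that differ in gene expression along the vessel.

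A total of 9811 cells were kept from 12487 deposited barcodes and clustered without these 10 genes or the other listed barrier and activation genes. Clusters were named from fixed markers, none of them a transporter in the set. This gave 1677 endothelial-like cells (307 and 484 without inhibitors, 314 and 572 with them), whose summed counts ran from 603510 to 1166603 unique molecular identifiers (UMIs, tags for single RNA molecules) per animal. All 11 endothelial markers were detected there. Flt1, a receptor for vascular growth factor, averaged 2776 CPM (UMIs scaled to 1e+06 per sum) against 109 in the next highest tested class, and Emcn, an endothelial sialomucin, 419 against 145. Markers of other cells were present too: 1231 of the endothelial-like cells held at least 2 UMIs of mural, astrocyte, oligodendrocyte or microglia markers, and in 11 cells these exceeded 1% of UMIs. Of the kept barcodes, 44 occurred in more than 1 library. In sums over cells, less RNA per cell and fewer expressing cells cannot be told apart. All values below are CPM per animal, given in the order without inhibitors replicates 1 and 2, then with inhibitors replicates 1 and 2.

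The genes are spread over 6 chromosomes (GRCm38, GENCODE vM21, all protein coding). Slc2a1 (chr4:119108711-119137983) and Mfsd2a (chr4:122946850-122961188) share chromosome 4. Slco1c1 (chr6:141524368-141570177) and Slco1a4 (chr6:141805440-141856199) lie near each other on chromosome 6, which also carries Abcg2 (chr6:58584523-58695676). Abcb1a (chr5:8660077-8748575) and Slc7a1 (chr5:148327410-148399904) are on chromosome 5. Slc16a1 (chr3:104638668-104658462), Slc7a5 (chr8:121881150-121907694) and Slc38a5 (chrX:8271133-8280179) stand alone on theirs. The library is read at the 3′ end, so a level is not corrected for length and levels were compared between cells, not between genes.

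Upstream sequences are shown for the 3 genes that were lowest in arterial-type endothelium (below) and are in the promoter table used here. The fourth gene with that pattern is Slc7a5. Each is the 250 bases before a RefSeq start site (GRCm38.p6), 5′ to 3′ on the gene's strand. Capitals mark matches, on either strand, to 6 short motifs: CTTTGA (TCF/LEF factors of the Wnt pathway), ACAAT (SOX factors), CCGGAA (ETS factors), GTAAACA (FOX factors), CACGTG (the E-box) and TATAAA (the TATA box).
Slc38a5, chrX:8271131-8271380, plus strand: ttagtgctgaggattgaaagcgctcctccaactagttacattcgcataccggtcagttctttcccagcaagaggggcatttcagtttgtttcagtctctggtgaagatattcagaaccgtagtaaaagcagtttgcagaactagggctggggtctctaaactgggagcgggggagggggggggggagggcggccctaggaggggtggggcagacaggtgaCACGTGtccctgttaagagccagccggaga
Slc16a1, chr3:104638414-104638663, plus strand: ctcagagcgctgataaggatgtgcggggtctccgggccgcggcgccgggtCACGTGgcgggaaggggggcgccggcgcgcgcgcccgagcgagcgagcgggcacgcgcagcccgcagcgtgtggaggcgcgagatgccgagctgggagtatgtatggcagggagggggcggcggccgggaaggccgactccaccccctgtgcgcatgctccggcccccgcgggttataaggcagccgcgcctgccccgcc
Slc7a1, chr5:148399905-148400154, minus strand: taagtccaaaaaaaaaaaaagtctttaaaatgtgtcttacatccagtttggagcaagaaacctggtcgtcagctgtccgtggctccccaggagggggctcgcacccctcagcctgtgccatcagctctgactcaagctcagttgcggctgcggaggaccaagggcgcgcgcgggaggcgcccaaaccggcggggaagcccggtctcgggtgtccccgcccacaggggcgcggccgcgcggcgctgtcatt
Slc7a1, a second start site, chr5:148392816-148393065, minus strand: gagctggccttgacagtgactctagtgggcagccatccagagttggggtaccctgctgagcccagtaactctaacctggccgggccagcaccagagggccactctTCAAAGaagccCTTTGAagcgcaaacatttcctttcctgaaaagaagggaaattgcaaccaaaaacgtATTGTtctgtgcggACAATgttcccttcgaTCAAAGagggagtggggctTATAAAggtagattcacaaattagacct
Slc38a5 and Slc16a1 each held 1 E-box, at position -30 and -200 from the start. Slc7a1 had no match in the 250 bases before its first start site and 3 TCF/LEF matches, 2 SOX matches and 1 TATA box before the second. The windows of 300 bases (250 before to 50 after the start) matched 9 of the 10 genes with 12 entries. Of these 12, an E-box was found in 3 (Slc16a1, Slc38a5 and Slco1c1), against 7.15% of all 32851 promoters. The TCF/LEF letters were in 3 (all promoters 16%), the SOX letters in 3 (31%), the FOX letters in 1 (3.65%), the TATA box in 5 (13.6%) and the ETS letters in 0 (14.9%). A match is a run of letters, not a shown binding site.

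The first comparison asked in which cells of the brain each transporter was found. All 10 genes were called higher in endothelial-like cells than in each of the other 7 tested classes, which were astrocyte-, choroid plexus-, ependymal-, microglia-, mural-, neuron- and oligodendrocyte-like cells. A call needed 2 things, an adjusted p below 0.05 and a log2 fold change beyond 0.58 in either direction (edgeR quasi-likelihood test with the animal as a block, Benjamini-Hochberg over 12031 genes). All 70 gene-by-class tests passed, but 4 of them were set against 0 UMIs and 8 against 1 to 3 UMIs. A gene that passes the filter on low counts through endothelial-like cells alone had to differ there, so the count of 70 is a description. Of all genes tested, 5.15% were called higher than in each class, and against the classes in turn 27.3% (astrocyte-like), 29.5% (choroid plexus-like), 25.8% (ependymal-like), 23% (microglia-like), 14.3% (mural-like), 27.9% (neuron-like) and 26.3% (oligodendrocyte-like) were. The median log2 fold change of the 10 ran from 5.01 against neuron-like to 7.08 against oligodendrocyte-like cells, where the median of all genes was 0.02 and 0.09. With the genes at 0 UMIs set to their bound, given below, the median against ependymal-like cells was 5.86 in place of 6.96 and against mural-like cells 5.28 in place of 5.71. These genes were chosen as barrier transporters, so their high level in vessels was not an open question. The values show where else RNA of each was counted and by how much. Endothelial markers were counted in other classes too, for example Egfl7 at 85.9 CPM in neuron-like cells (1294 CPM in endothelial-like cells). Flt1 was at 109 CPM in mural-like cells (2776 CPM in endothelial-like cells). The part of carried-over endothelial RNA in the low transporter levels of other classes was not tested. Cells mixed between endothelial and mural markers (158) and erythrocyte-like cells (79), which also held endothelial markers and were not tested, came next for several genes, for example Slc2a1 with means of 1642 and 1009 CPM.

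**Figure D1:**
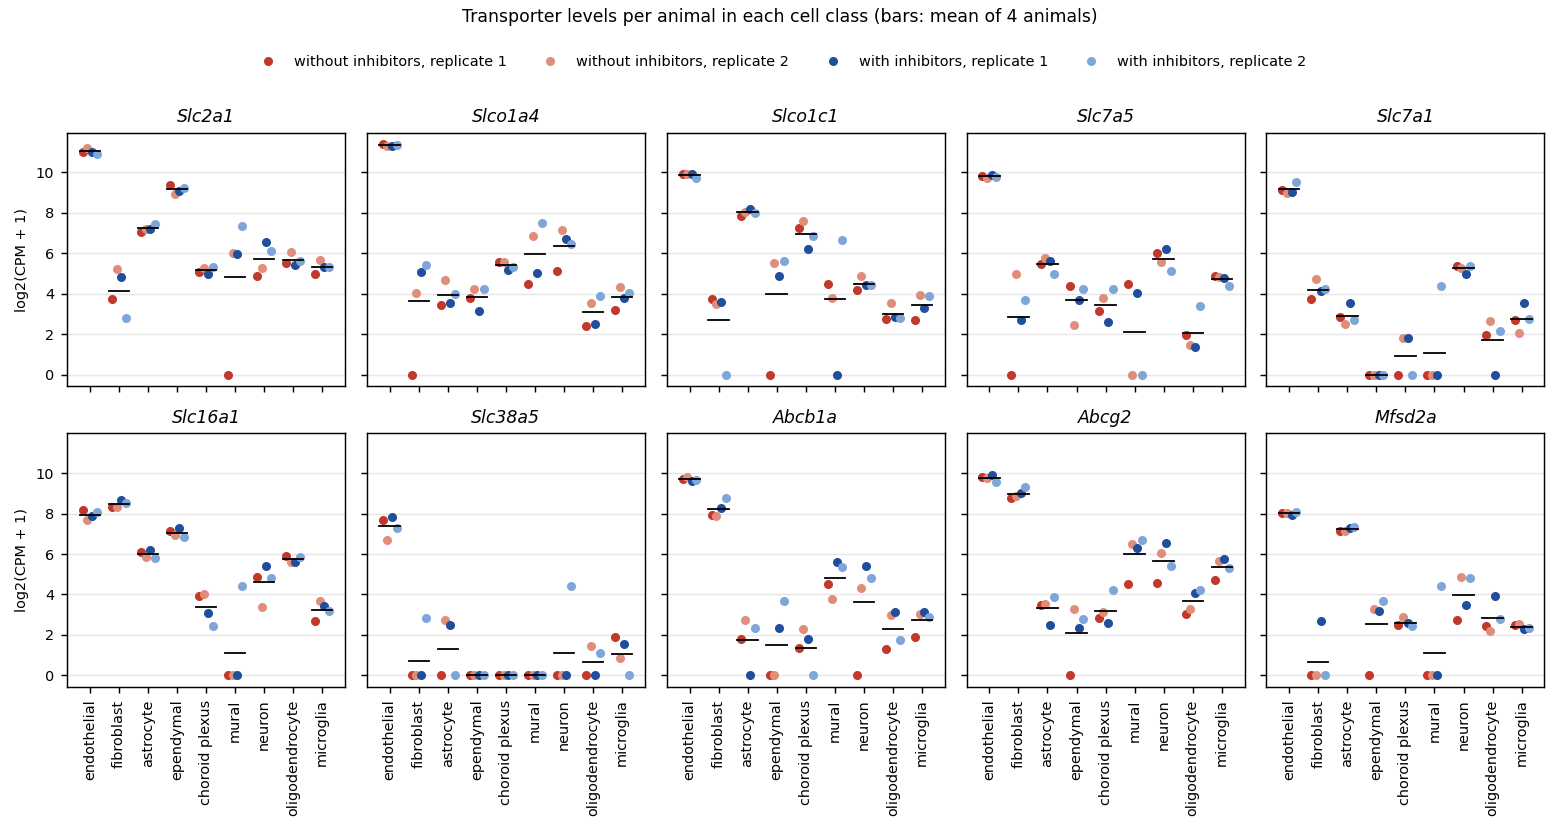
Levels of the 10 transporters, as log2(CPM + 1), in 9 cell classes, with 1 point per animal coloured by group and a bar at the mean of the 4 log2 values. Endothelial-like cells are highest for 9 genes, and for Slc16a1 the fibroblast-like points lie above them.

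Slc2a1 encodes GLUT1, the carrier that brings glucose across the barrier. Its level in endothelial-like cells was 2080, 2400, 2098 and 1930 CPM. Ependymal-like cells, which line the ventricles, came next among the tested classes with 664, 483, 551 and 609 CPM, a log2 difference of 2.10 ± 0.14 (SE) below endothelial-like cells. Astrocyte-like cells held 132 to 173 CPM. The other tested classes averaged 35.2 (choroid plexus-like) to 72 CPM (mural-like), and the range over animals of mural-like cells (0 to 162 CPM) overlapped that of astrocyte-like cells.

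Slc16a1 encodes MCT1, which carries lactate, pyruvate and ketone bodies and needs the partner protein basigin. It had 285, 202, 235 and 272 CPM in endothelial-like cells. Ependymal-like cells held 138, 120, 157 and 113 CPM, a log2 difference of 1.09 ± 0.16 (adjusted p 7.28e-11). Astrocyte-like (55.4 to 71.5 CPM) and oligodendrocyte-like cells (47.6 to 59.6 CPM) followed, with log2 differences of 1.98 and 2.03. The ranges of these last classes overlapped. Bsg, which encodes basigin, averaged 16568 ± 532 CPM (SD, n = 4) in endothelial-like cells and was called higher there than in all 7 classes.

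Of the amino acid carriers, Slc7a5 (LAT1, large neutral amino acids) was at 908, 852, 924 and 886 CPM in endothelial-like cells, and its highest other tested class was neuron-like cells with 34.1 to 72.3 CPM. Slc7a1 (CAT1, cationic amino acids such as arginine) was at 565, 506, 522 and 737 CPM. In ependymal-like cells Slc7a1 had 0 UMIs of 794123, so its endothelial level was at least 157-fold higher, measured against a floor of 3 counts over the class. Slc38a5 (SNAT5, glutamine and related neutral amino acids) had 204, 103, 227 and 153 CPM. It had 0 UMIs in choroid plexus-, ependymal- and mural-like cells, which made the endothelial level at least 110-fold, 42.5-fold and 12.7-fold higher. In mural-like cells, Slc7a1 rested on 1 UMI of 238002, and the ratio of 141 has a 95% counting interval from 25.3 to 5580. Slc3a2, the heavy chain that LAT1 needs to reach the membrane, was called higher in endothelial-like cells than in all 7 classes, least against astrocyte-like cells (log2 difference 0.90 ± 0.13, adjusted p 3.29e-11).

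Slco1c1 (OATP1C1) takes up the thyroid hormone thyroxine. Its level was 979, 961, 962 and 859 CPM in endothelial-like cells, 232, 267, 297 and 258 CPM in astrocyte-like cells, and 153, 192, 72.8 and 115 CPM in choroid plexus-like cells. All 3 ranges were separate. The differences to astrocyte-like and choroid plexus-like cells were 1.84 ± 0.14 and 2.17 ± 0.15 on the log2 scale, against 5.11 to 6.85 for the remaining classes. Its neighbour Slco1a4 (OATP1A4, organic anions and bile salts) was at 2689, 2552, 2557 and 2635 CPM in endothelial-like cells and no higher than 142 CPM in any animal of the other tested classes except 1, the mural-like cells of replicate 2 with inhibitors (182 CPM). Slco1a4 has close copies (Slco1a5, Slco1a6), so reads could be split between them.

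Both efflux pumps were low in every other tested class. Abcb1a (P-glycoprotein) had 830, 882, 788 and 813 CPM in endothelial-like cells and at most 46.9 CPM in any animal of another tested class. Abcg2 (BCRP) had 910, 863, 967 and 753 CPM and at most 101 CPM. Abcb1a has a close copy, Abcb1b, that was called lower in endothelial-like than in microglia-like cells (log2 difference -3.71 ± 0.49, adjusted p 2.1e-13). Of 4 other efflux pump genes tested, Abcc4 (MRP4) was called higher than in each class.

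Mfsd2a carries docosahexaenoic acid as lysophosphatidylcholine and is known for keeping transcytosis low. Its level was 258, 260, 243 and 266 CPM in endothelial-like and 141, 142, 156 and 161 CPM in astrocyte-like cells. The log2 difference of 0.78 ± 0.11 (adjusted p 6.44e-12) was the smallest of the 70. With DESeq2 it was 0.50, below the fold limit. In oligodendrocyte precursor-like cells (OPC-like, 74 cells, not tested) Mfsd2a was at 105, 246, 119 and 271 CPM, a range that overlapped that of endothelial-like cells, from 32 UMIs in all.

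The protocol removed the meninges as completely as possible before the brains were sliced. Fibroblast-like cells (129 cells, 19 to 38 per animal) fell under the minimum of 20 cells in 1 animal and were not tested, and they held a different subset of the transporters. Slc16a1 was at 318, 318, 400 and 369 CPM there, above endothelial-like cells in each of the 4 animals, with ranges that did not overlap. Abcb1a was at 245, 231, 307 and 441 CPM, and Abcg2 at 428, 467, 510 and 629 CPM. The other 7 transporters averaged 1.37 (Mfsd2a) to 22.6 CPM (Slco1a4). The 3 came from 1 of the class's 2 clusters, of 95 cells, which was led by Mgp, Nov, Igfbp6 and Slc47a1 (genes of matrix, growth factor binding and organic cation efflux). In that cluster Slc16a1 ran from 341 to 450 CPM, Abcb1a from 252 to 491 CPM and Abcg2 from 498 to 687 CPM over the animals (219, 194 and 318 UMIs), and each of the other 7 genes had 1 to 12 UMIs. The second cluster, 34 cells led by Dcn, Slc6a13 and Spp1, had 0 UMIs of Abcb1a, 3 of Slc16a1 and 5 of Abcg2. It held 15 of the class's 16 UMIs of Slco1a4, at 0, 124, 266 and 413 CPM. In both clusters, 0 of 11 endothelial markers passed the naming limits.

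Per cell, endothelial-like cells were compared at a common depth by thinning each to 1000 UMIs, which left out 94 cells without and 127 with inhibitors as too shallow. A cell then held a UMI of 4.69, 4.74, 4.82 and 4.69 of the 10 transporters on average (mean 4.74 ± 0.0636, SD, n = 4). In microglia-like cells, the class chosen for comparison, the mean was 0.153 ± 0.0234. This class was not free of the transporters' RNA, since 6 of the 10 passed the filter on low counts there. At least 1 transporter was seen in 99.7% of endothelial-like and 14% of microglia-like cells, and at least 5 in 55.9% and 0%. Each transporter was seen in a larger share of endothelial-like than of microglia-like cells, from 89.8% against 1.53% for Slco1a4 to 12% against 0.109% for Slc38a5. For Slc2a1 the shares were 79.1% and 3.67%, for Slco1c1 57.2% and 1.02%, for Slc7a5 53.9% and 2.51%, for Abcg2 53.2% and 4.18%, and for Abcb1a 51% and 0.727%. The remaining 3 were Slc7a1 (36.1% and 0.473%), Mfsd2a (21.5% and 0.327%) and Slc16a1 (19.1% and 0.836%). Median depth before thinning was 1761 UMIs in endothelial-like and 1380 in microglia-like cells. Without thinning, an endothelial-like cell held 6.09 of the 10.

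**Figure D2:**
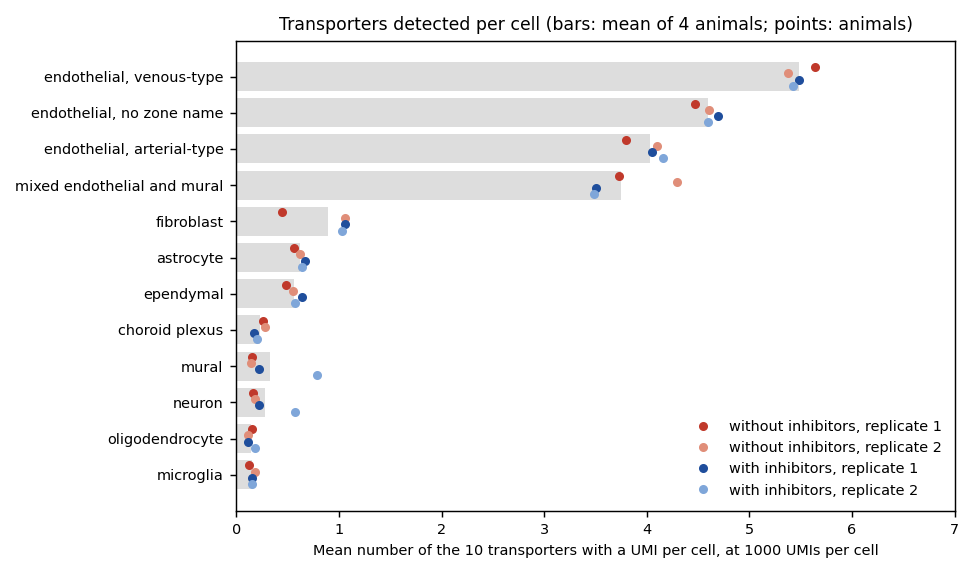
Mean number of the 10 transporters with at least 1 UMI in a cell thinned to 1000 UMIs, for 3 endothelial zones and 9 other classes, with bars for the mean of 4 animals and points for the animals. Venous-type endothelial cells lie between 5.38 and 5.64 and arterial-type cells between 3.8 and 4.16, and microglia-like cells average 0.153.

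The second comparison asked how the transporters differ along the vessel. Endothelial-like cells were sub-clustered without the listed genes into an arterial-type zone (311 cells, 8 of 13 arterial markers, among them Bmx, Gkn3 and Hey1) and a capillary-venous zone (1317 cells). The latter held a venous-type sub-cluster of 422 cells (6 of 14 venous markers, among them Nr2f2, Vwf and Vcam1) and 895 cells in 2 sub-clusters that got no zone name. Each of these 2 passed 0 of 5 capillary and 0 of 14 venous markers. The only capillary marker to pass in any sub-cluster, Car4, did so in the venous-type one. Capillary-venous is thus a name by exclusion, for cells that were not arterial-type. A further 49 cells led by astrocyte genes were left out. In arterial-type cells, 4 of the 10 transporters were called lower than in the capillary-venous zone and 0 higher (edgeR, animal as a block): Slc38a5, Slc16a1, Slc7a1 and Slc7a5, which are 3 amino acid carriers and the lactate carrier. Of all 5670 genes tested, 5.98% were called and 2.49% were called lower, and among the 4711 not used in the sub-clustering 1.72% were called lower. The median log2 fold change was -0.40 over the 10 and 0.00 over all genes.

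**Figure D3:**
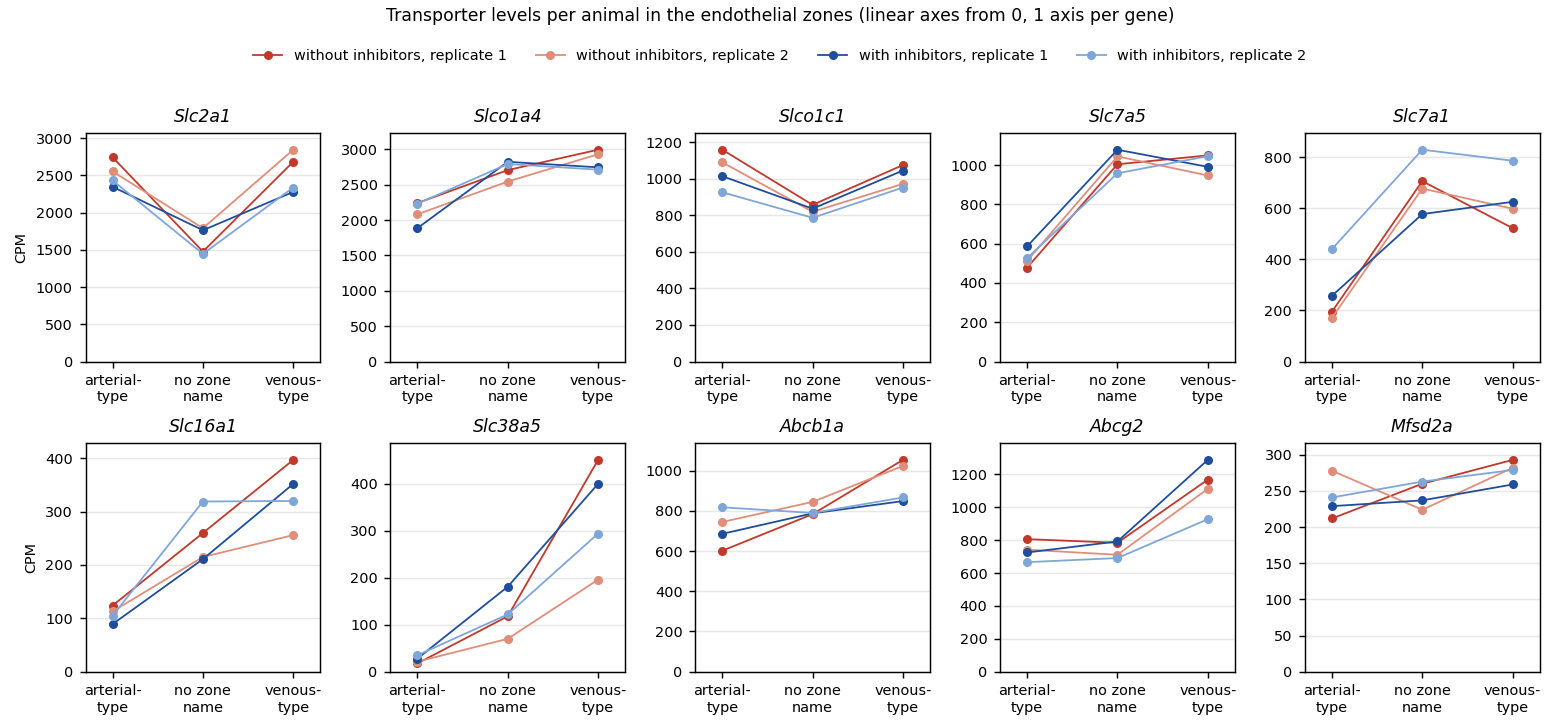
CPM of each transporter in arterial-type, unnamed and venous-type endothelial cells, with 1 line per animal and linear axes that start at 0 and differ between genes. Slc38a5 climbs from 17.7 to 35 CPM in arterial-type to 196 to 451 CPM in venous-type cells, Slc7a1 and Slc7a5 are low in arterial-type cells alone, and Mfsd2a has overlapping values in all 3 zones.

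Slc38a5 was at 17.7, 21.4, 27.9 and 35 CPM in arterial-type and at 246, 138, 296 and 189 CPM in capillary-venous cells. The zones did not overlap, and the log2 fold change was -2.95 ± 0.22 (7.73-fold lower, adjusted p 1.2e-11). Slc16a1 was at 124, 113, 89.2 and 105 against 313, 237, 285 and 319 CPM, a log2 fold change of -1.43 ± 0.14 (2.69-fold lower, adjusted p 7.48e-09). For Slc7a1 the values were 195, 171, 257 and 440 against 635, 634, 602 and 812 CPM, with -1.37 ± 0.12 (2.58-fold lower, adjusted p 1.78e-10). Slc7a5 was at 478, 513, 586 and 526 against 1021, 992, 1033 and 992 CPM, with -0.97 ± 0.08 (1.96-fold lower, adjusted p 4.26e-11). All 4 genes were lower in arterial-type cells of every animal.

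The other 6 transporters differed by less than the fold limit. Slco1a4 was lower in arterial-type cells of every animal (2240, 2081, 1885 and 2231 against 2817, 2752, 2782 and 2761 CPM) by a log2 value of -0.44 ± 0.06 (adjusted p 1.47e-06). The efflux pumps Abcg2 (-0.37 ± 0.08, adjusted p 0.00076) and Abcb1a (-0.29 ± 0.08, adjusted p 0.0121) had smaller differences in the same direction. Slc2a1 lay the other way, with 2744, 2554, 2348 and 2433 CPM in arterial-type and 1940, 2360, 2033 and 1794 CPM in capillary-venous cells (0.27 ± 0.06, adjusted p 0.00302). Slco1c1 (0.16 ± 0.07, 95% interval 0.02 to 0.30, adjusted p 0.164) and Mfsd2a (-0.12 ± 0.12, -0.35 to 0.12, adjusted p 0.637) did not pass. Summed over the 10, arterial-type cells held 8579, 8310, 7848 and 8421 CPM of these transcripts and capillary-venous cells 10004, 10140, 10095 and 9591 CPM. At 1000 UMIs per cell, arterial-type cells held 3.8, 4.1, 4.05 and 4.16 of the transporters and unnamed cells 4.47, 4.61, 4.69 and 4.6. Without thinning the means over animals were 5.91 and 5.54, the other way round, and arterial-type cells were deeper (median 2592 against 1438 UMIs before thinning).

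Other barrier genes were counted from the same kind of lists. Of 12 other solute carriers tested between the zones, 5 were called lower and 1 higher in arterial-type cells. Among them were Slc39a8 (zinc and manganese, log2 fold change -1.41 ± 0.20), Slc40a1 (the iron exporter ferroportin, -1.05 ± 0.12), Slc38a3 (glutamine, -0.88 ± 0.16) and Slc22a8 (organic anions, -0.71 ± 0.11). Tfrc, the transferrin receptor, was the 1 of 5 transcytosis receptors called, with 79.7, 104, 83.7 and 93.4 CPM in arterial-type and 233, 325, 290 and 347 CPM in capillary-venous cells (-1.77 ± 0.14, adjusted p 4.26e-11). Of 16 Wnt pathway and transcription factor genes, Nkd1, a Wnt target, was lower (-0.97 ± 0.12) and Sox17, an arterial factor, higher (0.75 ± 0.08). None of 7 tight junction genes, 4 caveolae and fenestration genes or 2 partner subunits was called.

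The zone result was checked against how the cells were chosen. Mural marker sums were 480 to 794 CPM in arterial-type and 270 to 413 CPM in capillary-venous cells, with every mural marker detected, while astrocyte (234 to 449 against 321 to 436), oligodendrocyte (541 to 791 against 672 to 773) and microglia sums (148 to 266 against 205 to 228) overlapped. With the 11 cells over 1% of other markers left out, the same 4 transporters were called. One unnamed sub-cluster (601 cells, median 1282 UMIs) was led by genes of other cells such as C1qb and Ttr. Without it the 4 calls held, with log2 fold changes of -3.25 (Slc38a5), -1.48 (Slc16a1), -1.40 (Slc7a1) and -0.98 (Slc7a5), while Slc2a1 fell to 0.16 (adjusted p 0.118). Both of these alternatives were chosen after seeing the data. When zones were instead set by counts of arterial marker UMIs (708 cells with at least 2 against 568 with 0), none of the 10 was called and Slc38a5, Slc16a1, Slc7a1 and Slc7a5 had -0.42, -0.47, -0.41 and -0.19. Median depth was 2299 and 1423.5 UMIs in those cells. With every cell of 2 or more other-marker UMIs left out (446 cells left, 1320 genes tested), Slc7a1 was called (-1.09), Slc16a1 (-0.53) and Slc7a5 (-0.37) were not, and Slc38a5 was not tested.

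**Figure D4:**
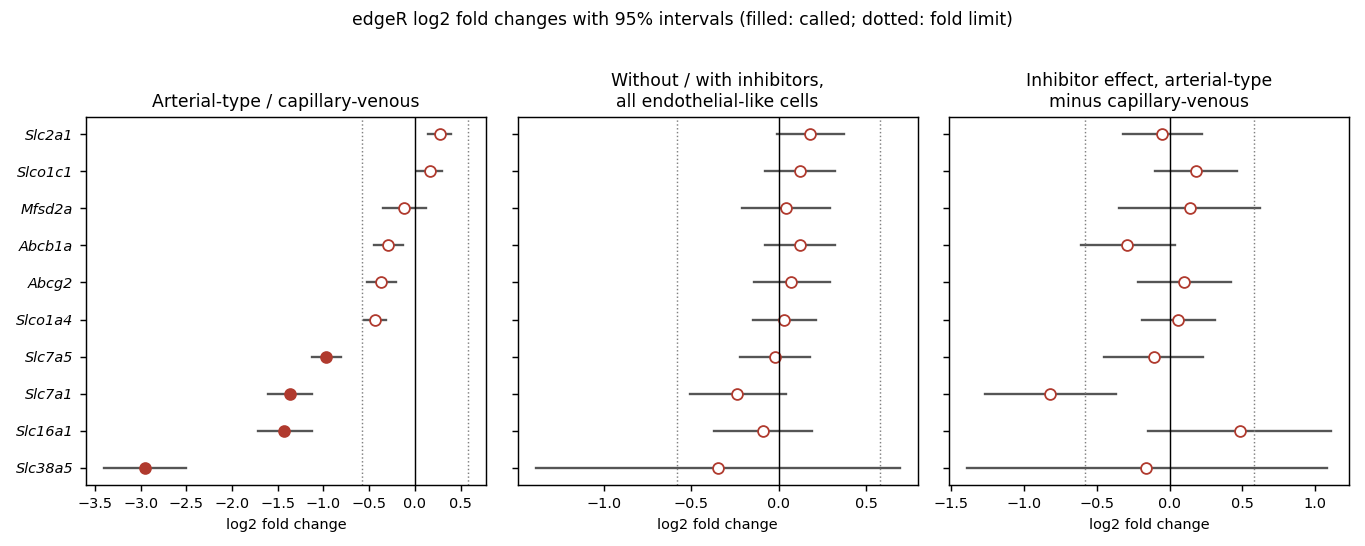
Log2 fold changes (points) with 95% intervals (lines) of the 10 transporters for the zone comparison, the inhibitor comparison in all endothelial-like cells, and the difference of the inhibitor effect between zones. Filled points passed both limits, which holds for Slc38a5, Slc16a1, Slc7a1 and Slc7a5 in the zone comparison and for no transporter in the other 2 panels.

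Within the capillary-venous zone, venous-type cells were compared with the unnamed cells, a comparison added after seeing the data. Here 2 transporters were called higher in venous-type cells, where 2.99% of 4878 genes were. Slc38a5 was at 451, 196, 400 and 294 CPM in venous-type and 118, 70, 181 and 122 CPM in unnamed cells, a log2 fold change of 1.37 ± 0.14 (adjusted p 1.54e-21). It was therefore graded over all 3 zones, with arterial-type lowest and venous-type highest in each animal. Slc2a1 was at 2684, 2846, 2279 and 2338 against 1477, 1791, 1764 and 1446 CPM (0.60 ± 0.05, adjusted p 2.06e-30), just past the fold limit, and fell under it at 0.54 without replicate 1 of the animals without inhibitors. Its arterial-type values, given above, overlapped the venous-type ones, so Slc2a1 was lowest in the unnamed cells of each animal and not particular to venous-type cells. Median depth was 2395 UMIs in venous-type and 1438 in unnamed cells. Abcg2 was just under the limit (0.53 ± 0.07, adjusted p 2.08e-13), with 1168, 1112, 1288 and 927 against 784, 711, 792 and 691 CPM, and without replicate 2 of the animals with inhibitors it was called at 0.60. Slc7a1 (-0.18) and Slc7a5 (-0.07), both low in arterial-type cells, did not pass here. Slc16a1 (0.29), Slco1c1 (0.24), Abcb1a (0.18), Mfsd2a (0.13) and Slco1a4 (0.02) also lay under the fold limit. Slc3a2, the partner of LAT1, was higher in venous-type cells (984, 1072, 984 and 869 against 473, 593, 479 and 468 CPM, 0.89 ± 0.07, adjusted p 1.37e-30), while Slc7a5 itself had 1049, 947, 991 and 1045 against 1004, 1044, 1078 and 958 CPM. At the higher sub-cluster resolution, however, Slc3a2 was the leading gene of a sub-cluster that passed 0 of 14 venous markers and 1 of 5 capillary markers (Car4). Without the sub-cluster led by genes of other cells, Slc38a5 stayed called at 1.04 and Slc2a1 at 0.65. Per cell at 1000 UMIs, venous-type cells held 5.64, 5.38, 5.48 and 5.42 transporters, more than arterial-type or unnamed cells in each animal, and Slc38a5 was seen in 23.6% of venous-type, 9.5% of unnamed and 2.93% of arterial-type cells. The zones were defined on the same cells, so these p-values take the borders as given.

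The third comparison asked whether the inhibitors changed the transporters' RNA in the time between perfusion and lysis. In endothelial-like cells none of the 10 was called (edgeR, group alone), where 0.0363% of 8257 genes were, and 456 genes had an unadjusted p under 0.05, none of them one of the 10. DESeq2 called 0 genes. Fold changes are values without over values with inhibitors. The median log2 fold change was 0.04 over the 10 transporters and 0.00 over all genes. Slco1a4 had 0.03 ± 0.09 (95% interval -0.15 to 0.21), Slc7a5 -0.02 ± 0.10 (-0.22 to 0.18), Mfsd2a 0.04 ± 0.12 (-0.21 to 0.29) and Abcg2 0.07 ± 0.11 (-0.14 to 0.29). Abcb1a and Slco1c1 had 0.12 ± 0.10 each, and Slc16a1 -0.09 ± 0.14. For 9 of the 10, the interval lay within the fold limit on both sides. The exception was Slc38a5 (-0.35 ± 0.38, -1.39 to 0.69, adjusted p 0.955), whose replicates without inhibitors differed most (204 and 103 CPM). Without the first of them it was called at -0.81, and without the second it was 0.15. The largest effects after it were Slc7a1 (-0.24 ± 0.13, adjusted p 0.905) and Slc2a1 (0.18 ± 0.09, adjusted p 0.893). Summed over the 10, the animals held 9708, 9581, 9524 and 9304 CPM. Of the listed activation genes, 22 of 31 tested in microglia-like cells were called higher without inhibitors, while in endothelial-like cells 0 of 17 were. The heat shock gene Hspa1a (5.95) and the phosphatase gene Dusp1 (5.66) led in microglia-like cells. The lists were chosen with earlier results of these data known, so these counts are a description and not an independent scale.

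The inhibitor effect was then compared between the zones. Of 6549 genes tested for an interaction, 0% were called by edgeR, 0 by DESeq2, and 278 had an unadjusted p under 0.05. Slc7a1 was 1 of these, with a difference of -0.82 ± 0.22 (-1.27 to -0.37, p 0.00101 in the edgeR fit, adjusted p 0.989). In arterial-type cells it had 195 and 171 CPM without and 257 and 440 CPM with inhibitors (-0.99 ± 0.24, adjusted p 0.203), and in capillary-venous cells 635 and 634 against 602 and 812 CPM (-0.15 ± 0.13, adjusted p 0.978). The difference did not pass the correction, and over 6 alternatives it ran from -0.94 to -0.20, the latter with zones set by marker UMIs. Without replicate 2 of the animals with inhibitors it was -0.61. The other 9 differences ran from -0.29 (Abcb1a) to 0.48 (Slc16a1).

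In other classes few of the transporters passed the filter on low counts. They were tested 6 times in astrocyte-like, 6 in microglia-like, 3 each in choroid plexus- and oligodendrocyte-like, 2 in ependymal-like, 1 in neuron-like and 0 times in mural-like cells. Calls over all genes were 0.048% in astrocyte-like, 0.526% in microglia-like, 4.48% in choroid plexus-like, 0.2% in oligodendrocyte-like, 0% in ependymal-like (149 of 3918 genes at an unadjusted p under 0.05) and 0.095% in neuron-like cells. The 1 transporter called was Slco1c1 in choroid plexus-like cells, the epithelium that makes cerebrospinal fluid. It had 153 and 192 CPM without and 72.8 and 115 CPM with inhibitors, and a log2 fold change of 1.14 ± 0.23 (2.2-fold higher without inhibitors, edgeR adjusted p 0.00224). Without replicate 1 of the animals with inhibitors it was 0.76 and not called. Median UMIs per choroid plexus-like cell were 2714 and 2378 without and 1931 and 1340.5 with inhibitors, and Ttr, the thyroxine-binding protein that this epithelium secretes, took 349281 and 262992 CPM without and 215726 and 203801 CPM with inhibitors. The part of depth in the Slco1c1 value was not tested. Also called in these cells were Bsg (0.59 ± 0.09) and the activation-list genes Folr1 (1.03), 1500015O10Rik (0.95) and Hist1h1c (-0.65). In endothelial-like cells Slco1c1 had 979 and 961 against 962 and 859 CPM. The difference of its inhibitor effect between the 2 classes, a test added after seeing the data, was 1.03 ± 0.26 (0.52 to 1.53, adjusted p 0.0288), where 0.306% of 8507 genes were called. It was not called without replicate 2 of the animals without inhibitors (1.01), or without replicate 1 (0.62) or replicate 2 (1.37) of those with them.

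Likeness to the transporters was measured over the 32 sums of 8 tested classes in 4 animals, as Pearson's r of log2(CPM + 10). These values describe differences between classes, share libraries within an animal and carry no test. Itm2a and Tie1, named below, are among the markers that named the endothelial-like class, so high values for them follow from how it was made. Slc38a5 had at most 9 UMIs in any other tested class (astrocyte-like), so its values rest on the endothelial-like sums. The mean of the 10 was most like Itm2a (0.968), Sox7 (0.968), Xdh (0.963), AU021092 (0.963) and Slc19a3 (0.962), the thiamine carrier. Slc38a5 was most like Ly75 and S1pr4 (0.978 each), Slc7a1 most like Tie1 (0.970), Slco1a4 like Rasip1 (0.970), Abcb1a like Nostrin (0.967), Abcg2 like Tbc1d4 (0.962), Slc7a5 like Pglyrp1 (0.936) and Slc2a1 like Nxpe4 (0.937). The closest genes to Slco1c1 were Id3 (0.857), Alpl and Prdm16 (0.851 each), to Mfsd2a Mcc (0.949) and Alpl (0.945), and to Slc16a1 Nxpe4 (0.879). Among themselves, Abcb1a and Abcg2 were the most alike pair (0.943) and Slc16a1 and Abcg2 the least (0.310), with a median of 0.699 over all pairs.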

How the data were processed

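Whole brains of 4 mice were profiled with the 10x Genomics 3′ version 2 kit, and the authors deposited UMI counts per gene and barcode, 1 matrix per library, made with Cell Ranger 3.0.0 on mm10 per the labels. The deposited counts per library ran from 5134359 to 7529804 UMIs. Barcodes with at least 400 genes and at most 20% mitochondrial UMIs were kept (10067), and 256 (2.54%) were removed as doublets by their likeness to simulated ones. Cells were clustered on 2000 variable genes without the 114 listed genes (30 components, 15 neighbours, Leiden resolution 1), and a cluster was named from at least 3 fixed markers. Endothelial-like cells were sub-clustered at resolution 0.5. That resolution, and the rule for mixed classes (a second class with at least 0.5 of its own markers), were set with the clusters in view.

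UMIs were summed per animal and class or zone and tested with edgeR 4.0.16 (filterByExpr, TMM, robust quasi-likelihood F test, Benjamini-Hochberg). The inhibitor fits held the group alone, and fits between classes or zones held the animal as a block. DESeq2 1.42.0, other scalings, filters, zone definitions, cell sets, a replicate block and leaving out each animal were alternatives. Classes with under 20 cells in any animal were not tested. On counts simulated from these sums, edgeR recovered 47.5% of genes changed by 1 on the log2 scale and 97.8% of those changed by 2 in the endothelial inhibitor comparison (8173 genes), 64.1% and 100% between zones (5618 genes), and 30.3% and 91.8% in the choroid plexus inhibitor comparison (4549 genes). The simulation gave every gene the same fixed dispersion and no animal effect, so these shares do not describe genes with a wider spread between animals.

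For all 10 transporters, whether they were called is reported wherever they were tested, but not every value is printed. Of every other list, the counts called in each direction and up to 4 called genes with the largest fold changes are named, and likeness names the genes with the highest correlations. The members and lists were chosen with earlier results of these data known. Counting intervals and floors (3 counts, 95%) cover counting error only. Analyses ran in Python 3.11.15 and R 4.3.3. Gene positions are from GENCODE vM21 and promoter sequences from RefSeq (GRCm38.p6).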

Additional observations from a re-analysis of the deposited data

Results flagged for a closer look

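The inhibitor effect on Slco1c1 differed between choroid plexus-like and endothelial-like cells by 1.03 on the log2 scale (edgeR interaction, SE 0.26, adjusted p 0.0288), with the leave-out values given in the report. DESeq2 gave 0.98 (adjusted p 0.0313).

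In 4 classes outside the tests, the summed level of the 10 transporters lay in every animal above the highest microglia-like value (range 119 to 189 CPM). Cells mixed between endothelial and mural markers (158 cells) had a median of 6020 CPM over the 4 animals, with 5941, 6788, 6012 and 6029 CPM. Erythrocyte-like cells (79) had a median of 4477 CPM (4322, 3767, 5011 and 4633), beside endothelial marker sums of 7993 to 12692 CPM. Fibroblast-like cells had a median of 1225 CPM, carried by Slc16a1, Abcb1a and Abcg2. Olfactory ensheathing-like cells (61) were found only in replicate 1 of each group. Their median was 441 CPM, with 491 CPM in the animal without inhibitors.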

How the results depend on the processing

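The inhibitor comparison in endothelial-like cells called 3 genes, 0 with DESeq2, a stricter cell filter (600 genes, 10% mitochondrial) or doublets kept, 15 with no filter on low counts, 1 with cells holding other markers left out, and 7 to 57 with an animal left out, with 0 to 1 transporters (Slc38a5, without replicate 1 of the animals without inhibitors). The titles' numbers 01 and 02 are not said to pair animals, though olfactory ensheathing-like cells were found only in the animals numbered 01. With these numbers as a replicate block 13 genes and 0 transporters were called. Same-numbered deviations correlated at -0.006 (from -0.143 in neuron-like to 0.072 in mural-like cells). In neuron-like cells crossed numbers, added after seeing the data, called 0 genes against 3 with and without the block, and 0 transporters each time. Transporter effects near 0 changed sign with cells holding other markers left out (Slc2a1 -0.04, Slc7a5 0.14, Slc16a1 0.21, Mfsd2a -0.26), and Slc7a5 also with the stricter filter (0.01) and doublets kept (0.00). Leaving out an animal moved Slco1a4 from -0.01 to 0.07, Slc7a5 from -0.05 to 0.01, Slc7a1 from -0.46 to 0.07, Slc16a1 from -0.31 to 0.16, Slc38a5 from -0.81 to 0.15, Abcg2 from -0.09 to 0.24 and Mfsd2a from -0.03 to 0.13. Leaving out 1 animal leaves a group with 1, assumed to vary like the other group.

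Over the other classes 272 genes were called with edgeR and 119 with DESeq2, and 0 to 1 transporters with an animal left out. Between zones, 339 genes and 4 transporters were called. DESeq2 called 180 genes, zones by marker UMIs 114 genes and 0 transporters, and cells holding other markers left out 29 genes and 1 transporter. Small values changed sign with marker zones (Abcb1a 0.06, Mfsd2a 0.12) and with those cells left out (Abcg2 0.02, Mfsd2a 0.33). Without an animal block, with no low-count filter, and at lower or higher sub-cluster resolution, the zone count stayed within 1.5 times. The interaction between zones and inhibitors called 0 to 1 genes with an animal left out, the venous-type comparison 1 to 3 transporters (Slco1a4 there ran from -0.03 to 0.06), and the choroid plexus interaction 0 to 1. Members with a UMI per endothelial-like cell were 3.16 at 500 UMIs and 6.09 unthinned.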
